A study of Homo sapiens with 15 samples.

Results

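The genes described here are 32 components of the TGF-beta, activin and BMP pathway (ligands, receptors, SMADs, inhibitors and ID target genes), chosen by symbol from the 730 endogenous genes of a NanoString PanCancer Pathways panel. The panel counted RNA in 15 samples of HCT116, an established human colon carcinoma line, with 3 samples in each of 5 groups. Control cells were left untreated, and the other groups received 40 µM thymoquinone (TQ), 15 µM 5-fluorouracil (5-FU), the Combi treatment of 35 µM TQ together with 35 µM 5-FU, or 35 µM SARB, a hybrid molecule in which TQ and 5-FU are linked. All cells were collected 24 h after the treatment began. The methods state that compounds were dissolved in DMSO, and the labels call the control cells untreated. All samples came from 1 cell line, and nothing in the labels says whether the 3 samples of a group were separate cultures, so the p-values measure the spread between these samples, which may be technical. The study set out to compare the hybrid with its parent compounds and their combination in colon cancer cells.

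Ligands of this family bind pairs of type I and type II serine/threonine kinase receptors. TGF-beta, activin and nodal signal through SMAD2 and SMAD3, most BMPs signal through SMAD1, SMAD5 and SMAD9, and both sets act in the nucleus with SMAD4. ID1, ID2 and ID4 encode inhibitors of basic helix-loop-helix transcription factors, and ID1 and ID2 are classical BMP-SMAD target genes in epithelial cells. HCT116 is mismatch-repair deficient and known for frameshift mutations in TGFBR2, which encodes the type II receptor for TGF-beta, so the line responds poorly to TGF-beta itself while BMP receptors and SMAD4 are retained. The panel counts RNA and does not report on this mutation.

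Levels are given as scaled counts, the raw count divided by a factor per sample from the geometric mean of 40 housekeeping genes (mean factor of 1 over the 15 samples). Each gene is read by its own probe, so levels are compared between samples and not between genes. A gene was called higher or lower where edgeR's quasi-likelihood test over the 730 genes gave a p that, adjusted by Benjamini-Hochberg, did not exceed 0.05 and the fold change reached 1.5. Background was the mean of the 8 negative probes plus 2 SD in the same sample. Endogenous counts summed to 220040 to 258006 in Control, 135017 to 513114 with TQ, 238738 to 261686 with 5-FU, 287333 to 607782 with Combi and 226357 to 568343 with SARB. The samples were assigned to 3 cartridges by the prefix of the scan names in their descriptions, which is an inference. Control 1 and all TQ, 5-FU and SARB samples were on cartridge 1, Control 2, Control 3 and Combi 1 on cartridge 2, and Combi 2 and Combi 3 on cartridge 3. With the cartridge as a block, TQ, 5-FU and SARB are therefore set against Control 1 alone, and Combi 1 against Control 2 and Control 3. SARB and Combi share no cartridge. Of the epithelial markers on the panel, 8 of 10 (among them CDH1, which encodes E-cadherin) were above background in all 15 samples. Of the 6 fibroblast markers none was above background in all 15 and 4 (COL1A2, COL3A1, PDGFRA and PDGFRB) were above it in none. COL1A1 was above it in 13 samples and COL5A1 in 5. Of the 6 leukocyte markers on the panel, CD40 was above background in all 15 samples and CSF1R in none. The only endothelial marker on the panel, FLT1, was above it in 2. The summed scaled count of the 10 epithelial markers was 4203 to 5671 in Control, 3534 to 3848 with TQ, 7629 to 7731 with 5-FU, 7669 to 8418 with Combi and 5904 to 6629 with SARB. In bulk RNA, fewer cells that express a gene and less of its RNA per cell cannot be told apart.

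Of the 32 pathway genes, 13 were above background in all 15 samples: TGFB1, BMP4, BMP5, BMP7, TGFBR2, ACVR1B, ACVR2A, SMAD2, SMAD3, SMAD4, BAMBI, ID1 and ID2. Another 11 passed in all 3 samples of at least 1 group, which makes 24 (542 of the 730 genes passed by the same measure). The remaining 8 did not: INHBA, INHBB, BMP2, BMP6, GDF6, ACVR1C, FST and LEFTY2. INHBA, BMP2, GDF6 and LEFTY2 were above background in no sample.

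The pathway genes whose calls held under all 21 alternative settings were ID1, ID2, BMP4 and TGFB1, each in at least 1 comparison. Among these settings, that with no minimum fold change only loosened the cut-off, so it could remove no call. The promoter sequences of these 4 genes are shown to place them in the genome and to show which SMAD and SP1 letters lie next to their starts. The sequences come from a set of RefSeq promoters for GRCh38.p14, and that set held 26 of the 32 genes. They give the 250 bases before the start of transcription, 5′ to 3′ on the gene's own strand. For BMP4 the first of the starts listed there was taken. Capitals mark the SMAD core CAGAC or its reverse complement GTCTG, the GC-rich SMAD element GGCGCC, and the GC box GGGCGG or its reverse complement CCGCCC, to which SP1 binds.
ID1, chr20:31605039-31605288, plus strand: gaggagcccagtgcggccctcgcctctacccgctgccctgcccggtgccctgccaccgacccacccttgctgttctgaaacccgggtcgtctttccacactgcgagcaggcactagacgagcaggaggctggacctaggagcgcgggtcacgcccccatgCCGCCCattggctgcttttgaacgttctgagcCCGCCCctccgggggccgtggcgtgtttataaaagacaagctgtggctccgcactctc
ID2, chr2:8681806-8682055, plus strand: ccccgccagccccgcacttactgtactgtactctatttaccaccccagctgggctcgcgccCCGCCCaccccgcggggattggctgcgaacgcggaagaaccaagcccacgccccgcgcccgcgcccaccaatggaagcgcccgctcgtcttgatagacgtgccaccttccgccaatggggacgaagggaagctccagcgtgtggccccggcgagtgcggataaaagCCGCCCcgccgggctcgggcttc
BMP4, chr14:53955051-53955300, minus strand: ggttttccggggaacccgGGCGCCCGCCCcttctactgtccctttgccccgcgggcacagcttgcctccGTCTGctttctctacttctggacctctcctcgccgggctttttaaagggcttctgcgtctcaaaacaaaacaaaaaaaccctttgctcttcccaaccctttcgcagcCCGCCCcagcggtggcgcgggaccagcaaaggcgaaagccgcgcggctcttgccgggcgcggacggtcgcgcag
TGFB1, chr19:41353923-41354172, minus strand: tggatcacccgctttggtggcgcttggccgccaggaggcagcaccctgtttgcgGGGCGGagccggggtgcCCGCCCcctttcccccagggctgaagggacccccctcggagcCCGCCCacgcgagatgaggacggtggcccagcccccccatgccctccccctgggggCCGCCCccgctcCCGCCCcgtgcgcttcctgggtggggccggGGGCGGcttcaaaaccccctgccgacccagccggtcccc
The windows of ID1 and ID2 each held 2 GC boxes and neither SMAD motif. The BMP4 window held 1 GTCTG, 1 GGCGCC and 2 GC boxes, and its GGCGCC overlaps a GC box. The TGFB1 window held 6 GC boxes and neither SMAD motif. Among 35116 promoter windows of the same length, 38% held the SMAD core, 16.4% the GC-rich SMAD element and 42.6% a GC box. A match describes the letters of a window, and the absence of a match says only that these letters are not in it.

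Across the pathway, TQ gave 0 calls upward and 6 downward among the 32 genes, where 3.42% of all 730 genes were called higher and 21.6% lower. At an unadjusted p under 0.05, edgeR also found 0 of the 32 genes higher, and DESeq2 called 1 higher. 5-FU gave 1 call upward and 2 downward, against 10.1% of all genes higher and 10.1% lower. Combi gave 3 upward and 2 downward, against 13.6% higher and 6.58% lower. SARB gave 2 upward and 4 downward, against 8.63% higher and 20.0% lower, and 2 upward and 15 downward without SARB 2. With TQ, 6 of 32 genes lower and 0 higher stood near the shares over the whole panel, and the TQ calls under TMM normalization were upward. The 5 comparisons share samples, the 4 with Control sharing all 3 Control samples, so they are not independent of each other. A change seen in more than 1 of them is not an independent repeat.

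The scaling moved this balance. On the housekeeping scale all 730 genes had a median log2 fold change of -0.47 with TQ, -0.27 with 5-FU, -0.10 with Combi and -0.41 with SARB. The 32 pathway genes had medians of -0.82, -0.30, -0.08 and -0.58 in the same order. For the 24 of them above background in all samples of at least 1 group, the medians were -0.46, -0.27, -0.11 and -0.52. The mean of the negative probes on this scale had log2 ratios to Control of -1.45, -0.65, -0.67 and -0.93. Their part in the medians was not tested. TMM normalization, which centres on the bulk of the genes, moved the median of all genes to -0.02, -0.07, -0.02 and -0.07. That of the 32 pathway genes moved to -0.34, -0.12, -0.00 and -0.26. Under TMM, TQ gave 2 pathway genes higher (BMP7 and SMAD3) and 0 lower, where 10.8% of all genes were called higher and 6.03% lower. 5-FU then gave 3 higher and 1 lower (14.2% and 5.62% of all genes), Combi 5 higher and 2 lower (16.3% and 5.75%), and SARB 4 higher and 3 lower (16.4% and 9.32%). None of the 6 falls called with TQ on the housekeeping scale was called under TMM.

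**Figure D1:**
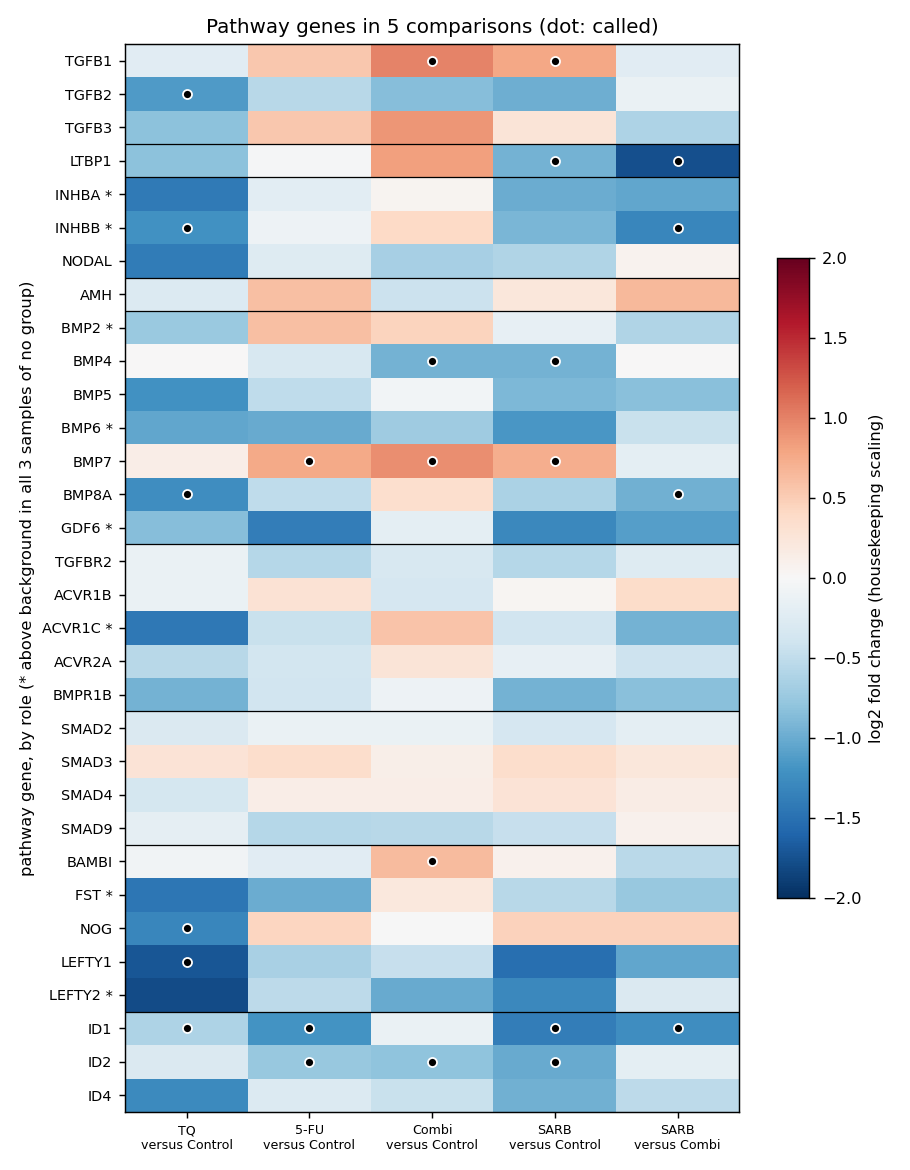
Log2 fold changes of the 32 pathway genes (rows, grouped by role) in 5 comparisons (columns) on the housekeeping scale, with a dot where a gene was called. Few cells carry a dot, BMP7 has 3 dots for higher levels, ID2 has 3 and ID1 has 4 dots for lower levels, and most of the TQ column is blue, where the median of all 730 genes was -0.47.

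The ID genes, the targets of the pathway, gave its largest called falls at high counts. ID1 stood at 3061, 2679 and 3042 scaled counts in the Control samples. It read 1870, 1882 and 1980 with TQ, and 1261, 1229 and 1358 with 5-FU. It read 2344, 2744 and 2891 with Combi, and 1231, 1317 and 832 with SARB. No sample of TQ, 5-FU or SARB reached the Control range, while Combi overlapped it. ID1 fell 2.28-fold with 5-FU (log2 fold change -1.19, SE 0.14, edgeR adjusted p = 9.16e-07, n = 3 per group) and 2.61-fold with SARB (-1.38, SE 0.14, edgeR adjusted p = 1.11e-07), and both calls were kept under all 21 alternatives. With TQ it fell 1.53-fold (-0.62, SE 0.14, edgeR adjusted p = 0.00227), a call that was lost under TMM (-0.16), under DESeq2 (-0.13) and without Control 1. With Combi the log2 fold change was -0.14 (95% interval -0.42 to 0.14).

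ID2 stood at 1237, 1084 and 1059 in Control and at 776, 969 and 1003 with TQ. It read 633, 649 and 717 with 5-FU, 653, 658 and 628 with Combi, and 572, 646 and 478 with SARB. All treated samples lay below the lowest Control sample. The falls were 1.69-fold with 5-FU (log2 fold change -0.76, SE 0.13, edgeR adjusted p = 9.35e-05), 1.74-fold with Combi (-0.80, SE 0.13, edgeR adjusted p = 3.56e-05) and 2.00-fold with SARB (-1.0, SE 0.13, edgeR adjusted p = 3.03e-06). Those with Combi and SARB were kept under all 21 alternatives, and that with 5-FU dropped below the fold threshold under TMM (-0.57) and was lost under DESeq2. With TQ the difference was -0.29 (edgeR adjusted p = 0.0726) and turned to 0.16 under TMM. ID4 ran from 6.17 to 36.3 scaled counts over all samples, was above background in 12 of 15, and was called in no comparison. ID1 and ID2 thus differed in the Combi group, where ID2 fell and ID1 overlapped Control.

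**Figure D2:**
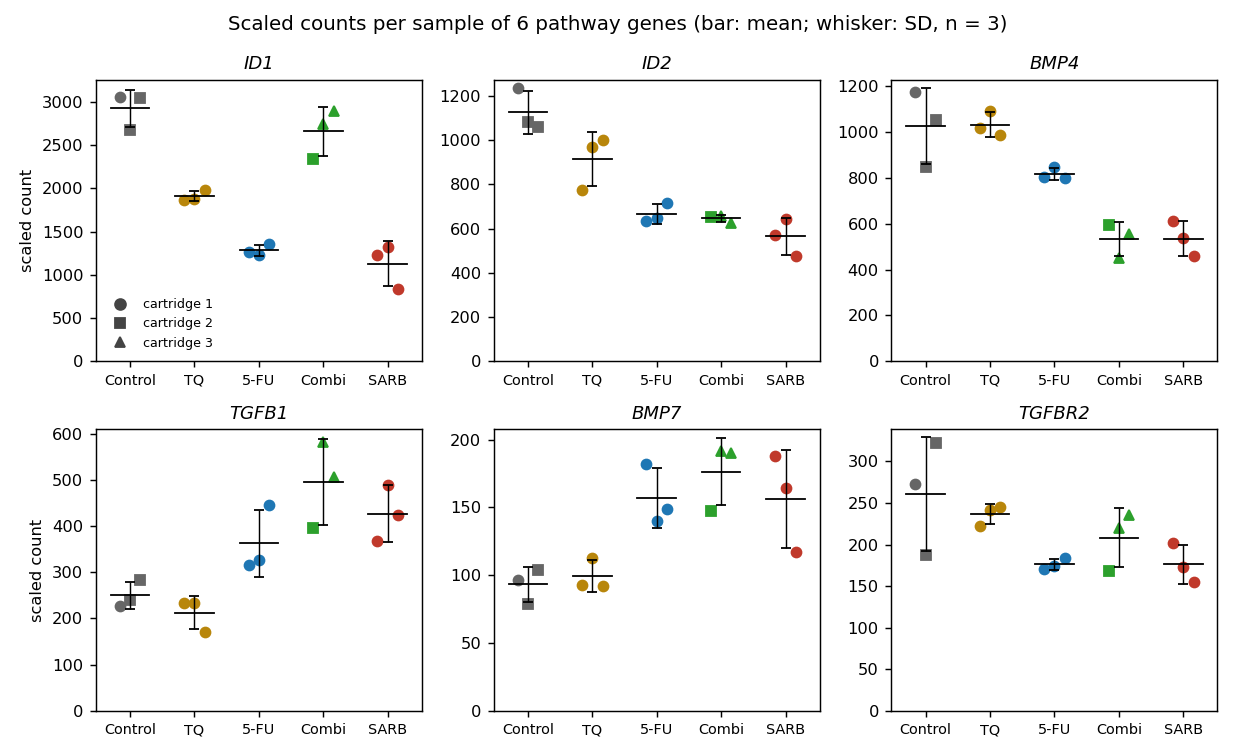
Scaled counts (vertical axes, from 0) of ID1, ID2, BMP4, TGFB1, BMP7 and TGFBR2 in the 15 samples by group (horizontal axes), with the marker shape for the cartridge, a bar for the mean and a whisker for the SD of 3 samples. ID1 with Combi (2344 to 2891) overlaps Control (2679 to 3061) while ID2, BMP4 and TGFB1 with Combi do not.

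Among the BMP and GDF ligands, BMP4, a ligand that acts in epithelial differentiation in the colon, fell with Combi and SARB. BMP4 read 1176, 848 and 1055 in Control and 1018, 1093 and 989 with TQ. It read 805, 847 and 799 with 5-FU, 593, 452 and 555 with Combi, and 611, 537 and 458 with SARB. All Combi and SARB samples lay below every Control sample, and TQ overlapped Control. The 1.93-fold fall with Combi (log2 fold change -0.95, SE 0.14, edgeR adjusted p = 1.40e-05) and the 1.92-fold fall with SARB (-0.94, SE 0.14, edgeR adjusted p = 1.68e-05) were kept under all 21 alternatives. With 5-FU the 3 samples lay just under the lowest Control sample, with a log2 fold change of -0.33 (edgeR adjusted p = 0.0800). With TQ it was 0.01 (95% interval -0.27 to 0.30).

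BMP7, a ligand of the same class, went the other way. It read 96.9, 78.6 and 104 in Control and 93.0, 113 and 92.1 with TQ. It read 182, 140 and 149 with 5-FU, 148, 191 and 190 with Combi, and 188, 164 and 117 with SARB. Every 5-FU, Combi and SARB sample was above every Control sample, SARB 3 being the nearest. The rises were 1.69-fold with 5-FU (log2 fold change 0.76, SE 0.20, edgeR adjusted p = 0.00605), 1.91-fold with Combi (0.93, SE 0.19, edgeR adjusted p = 0.000642) and 1.66-fold with SARB (0.73, SE 0.20, edgeR adjusted p = 0.00591). None of the 3 calls was kept with the cartridge as a block (0.70, 0.70 and 0.67, edgeR adjusted p = 0.124, 0.113 and 0.129), and that with SARB was also lost without SARB 1 (0.57). With TQ the log2 fold change was 0.13 (95% interval -0.31 to 0.56).

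Of the other 5 BMP and GDF ligands only BMP8A was called. BMP5 ran from 7.40 to 68.2 scaled counts, was above background in all 15 samples and was called in no comparison. BMP2, BMP6 and GDF6, of which none was above background in all samples of a group, were not called either.

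TGFB1, the ligand of the canonical TGF-beta branch, rose with Combi and SARB. It read 227, 240 and 282 in Control and 233, 234 and 171 with TQ. It read 315, 327 and 446 with 5-FU, 396, 582 and 507 with Combi, and 367, 489 and 424 with SARB. Every 5-FU, Combi and SARB sample was above the highest Control sample. The rise was 1.99-fold with Combi (log2 fold change 0.99, SE 0.17, edgeR adjusted p = 0.000116) and 1.71-fold with SARB (0.77, SE 0.17, edgeR adjusted p = 0.00157). The call with SARB was kept under all 21 alternatives, and that with Combi under all except the cartridge block (0.60, edgeR adjusted p = 0.0960). With 5-FU the change of 1.45-fold (0.54, SE 0.18, edgeR adjusted p = 0.0271) missed the fold threshold of 1.5, and it passed under TMM (0.73) and DESeq2 (0.73) and without Control 3, 5-FU 1 or 5-FU 2. With TQ it was -0.23, and 0.25 under TMM.

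LTBP1, which encodes a protein that binds latent TGF-beta to the matrix, read 24.2, 30.2 and 40.3 in Control and 48.9, 63.8 and 53.9 with Combi. It read 19.3, 18.9 and 12.3 with SARB, 17.1, 16.6 and 20.5 with TQ and 31.7, 34.6 and 26.4 with 5-FU. All SARB and TQ samples were below and all Combi samples above the Control range. LTBP1 was above background in 1 of 3 Control and 2 of 3 SARB samples. The difference with SARB was called lower (log2 fold change -0.94, SE 0.34, edgeR adjusted p = 0.0314). The mean of the negative probes on the same scale also stood lower with SARB (3.20 to 16.3) than in Control (11.7 to 20.6), a log2 ratio of -0.93, and its part in the difference was not tested. That call was lost under TMM, DESeq2 and the cartridge block, and without Control 2, Control 3, Combi 3 or SARB 3. The Combi difference of 0.82 (SE 0.31) had an edgeR adjusted p of 0.0532. LTBP1 was called higher with Combi under TMM (0.92), DESeq2 (0.87) and in limma on the deposited values (1.38). With the cartridge block it was not called (0.47, edgeR adjusted p = 0.684).

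The remaining ligands had low counts. TGFB2 read 25.9, 54.4 and 45.4 in Control and 17.1, 22.8 and 15.3 with TQ. INHBB, a subunit of activin B, read 17.3, 30.2 and 25.2 in Control and 17.1, 10.5 and 5.12 with TQ. BMP8A read 41.5, 39.3 and 47.1 in Control and 29.4, 16 and 11.9 with TQ. In each of these genes the TQ samples lay below the Control samples, for INHBB by the smallest margin. Also called lower with TQ were 2 secreted inhibitors. NOG, which encodes the BMP antagonist noggin, read 36.3, 25.7 and 11.8 in Control and 14.7, 10.5 and 5.12 with TQ. LEFTY1, which encodes an antagonist of nodal, read 17.3, 40.8 and 70.6 in Control and 12.2, 4.32 and 27.3 with TQ. For both inhibitors the groups overlapped.

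Of the 3 Control samples, INHBB was above background in 0, NOG in 1, BMP8A and LEFTY1 in 2 and TGFB2 in 3. With TQ it was NOG and LEFTY1 in 1 sample, INHBB and BMP8A in 2 and TGFB2 in 3. The fitted log2 fold changes with TQ, which for INHBB and NOG rest on Control levels mostly not above background and are no measured falls, were -1.14 for TGFB2, -1.21 for INHBB, -1.23 for BMP8A, -1.30 for NOG and -1.71 for LEFTY1, with edgeR adjusted p from 0.0141 (BMP8A) to 0.0445 (INHBB). The mean of the negative probes on the same scale was 3.55 to 7.65 with TQ and 11.7 to 20.6 in Control, a log2 ratio of -1.45, and its part in these 5 differences was not tested. In limma on the deposited values, from which background had been subtracted, BMP8A kept its call and TGFB2, INHBB, NOG and LEFTY1 did not. All 5 calls were lost under TMM, DESeq2 and the cartridge block. The count of 6 genes called lower with TQ ranged from 1 (without TQ 2) to 12 (without SARB 3) as each sample was left out, was 3 without Control 3 or SARB 1 and was 11 without SARB 2.

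**Figure D3:**
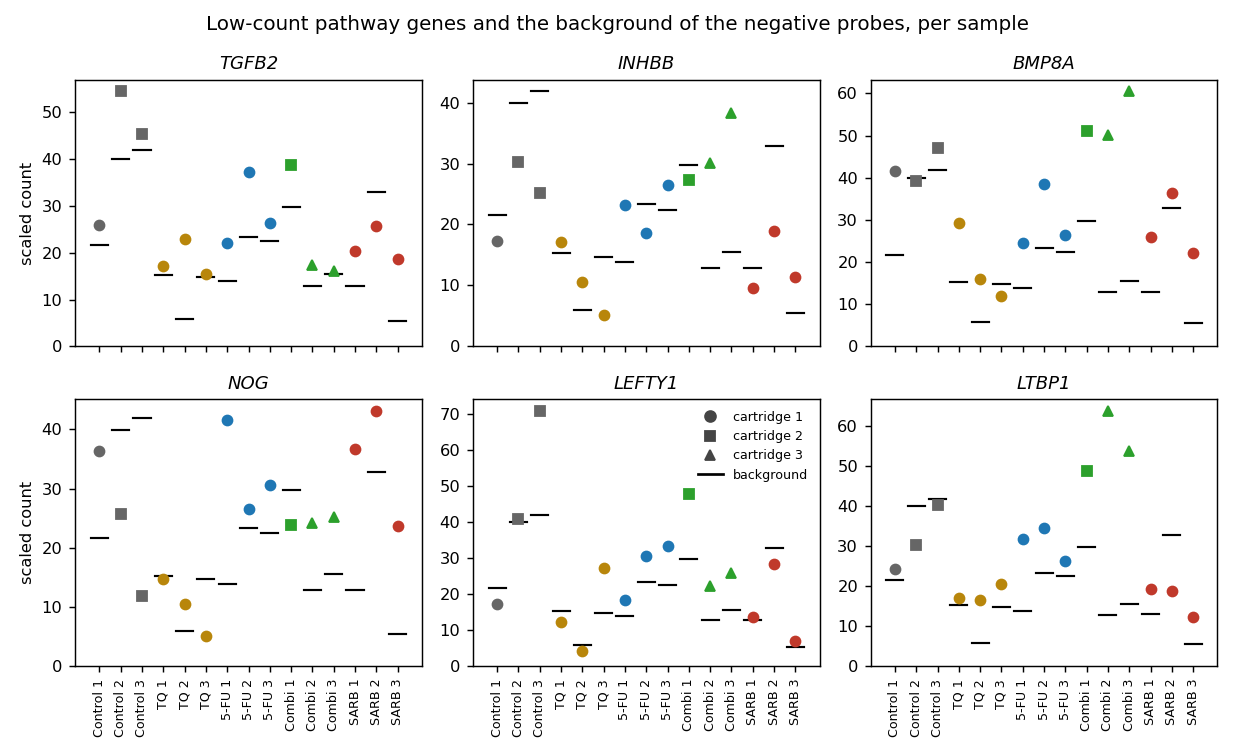
Scaled counts (vertical axes, from 0) of TGFB2, INHBB, BMP8A, NOG, LEFTY1 and LTBP1 in the 15 samples (horizontal axes), with marker shape for the cartridge and a black line for the background of that sample. Background on this scale ranged from 21.6 to 41.9 in Control and from 5.90 to 15.3 with TQ, and many points lie close to the line of their own sample.

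TGFB3, NODAL and AMH were called in no comparison by edgeR on the housekeeping scale. TGFB3 was called higher with Combi under TMM (0.99) and in limma on the deposited values (2.31). It was not called there under DESeq2 (0.93) or the cartridge block (0.27), and was above background in 0 of 3 Control samples. AMH was called higher with 5-FU under TMM (0.79). TGFB3 ran from 6.82 to 39.0 scaled counts and was above background in 10 samples. NODAL, from 6.78 to 52.6, was above it in 13, and AMH, the ligand anti-Müllerian hormone, from 22.2 to 65.3, in 12. INHBA, the subunit of activin A, stayed between 1.48 and 15.9, at or below background in every sample.

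None of the 5 receptors was called in any of the 5 comparisons. TGFBR2 read 273, 187 and 323 in Control and 223, 242 and 246 with TQ. It read 171, 174 and 183 with 5-FU, 168, 220 and 236 with Combi, and 201, 173 and 155 with SARB. The 5-FU samples lay below the Control range, and the SARB samples overlapped it through Control 2. With 5-FU the log2 fold change was -0.56 (SE 0.18, edgeR adjusted p = 0.0202) and with SARB -0.57 (SE 0.17, edgeR adjusted p = 0.0137), both with a fold below 1.5. Both passed the fold threshold without Control 2 (-0.76 and -0.77) and in limma on the deposited values (-0.60 and -0.63), that with 5-FU also without 5-FU 3 and that with SARB without SARB 1, and they stood at -0.36 and -0.21 under TMM. With Combi it was -0.31 (95% interval -0.67 to 0.04) and with TQ -0.13 (95% interval -0.50 to 0.23).

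ACVR1B, a type I activin receptor, read 79.0 to 172 over all samples. ACVR2A, a type II activin receptor, read 89.1 to 180. For ACVR2A the TQ samples (93.0, 91.9 and 111) lay below Control (135, 119 and 178), with a log2 fold change of -0.55 (edgeR adjusted p = 0.0231) that missed the fold threshold and was -0.07 under TMM. BMPR1B, a type I BMP receptor, ran from 5.55 to 46.9 and ACVR1C from 2.45 to 25.8, both partly below background.

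SMAD2, SMAD3 and SMAD4 were measured at high counts and SMAD9 at low counts, and no SMAD was called on the housekeeping scale. SMAD2 read 398, 447 and 536 in Control, 421, 374 and 346 with TQ, 440, 366 and 459 with 5-FU, 385, 435 and 440 with Combi, and 410, 367 and 326 with SARB. SMAD2 overlapped Control in every group. SMAD3 read 621, 416 and 526 in Control, 700, 632 and 549 with TQ, 675, 659 and 656 with 5-FU, 507, 601 and 589 with Combi, and 789, 649 and 564 with SARB. All 5-FU samples of SMAD3 lay above every Control sample, and the other groups overlapped Control.

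SMAD4 read 583, 587 and 553 in Control, 419, 424 and 501 with TQ, 611, 595 and 685 with 5-FU, 560, 658 and 661 with Combi, and 550, 760 and 778 with SARB. The TQ samples lay below Control and the 5-FU samples above it. The log2 fold changes of SMAD2 lay between -0.33 (SARB) and -0.13 (5-FU and Combi), those of SMAD3 between 0.12 (Combi) and 0.36 (SARB), and those of SMAD4 between -0.36 (TQ, edgeR adjusted p = 0.0479) and 0.28 (SARB). Under TMM, SMAD3 was called higher with TQ (0.72) and SARB (0.69), SMAD4 was called higher with SARB (0.63), and SMAD4 with TQ turned to 0.10. SMAD9 ran from 21.3 to 64.0 and was above background in 11 samples.

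BAMBI encodes a pseudoreceptor that dampens TGF-beta and BMP signals. It read 45.0, 63.5 and 53.8 in Control and 79.5, 98.5 and 73.7 with Combi, and all Combi samples exceeded all Control samples. The other groups overlapped Control, at 46.5, 46.9 and 63.1 with TQ, 40.3, 51.9 and 47.3 with 5-FU, and 52.1, 67.4 and 55.1 with SARB. The rise with Combi was 1.55-fold (log2 fold change 0.63, SE 0.22, edgeR adjusted p = 0.0345), and it was lost with the cartridge block (0.44, edgeR adjusted p = 0.497) and without Control 1, Control 3 or Combi 2. Of the other inhibitors, FST (follistatin) was above background in 2 of 15 samples and LEFTY2 in none, and neither was called.

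SARB and Combi were the only pair of treatments at a matched dose (35 µM, in Combi of each compound) and time. SARB joins derivatives of TQ and 5-FU in a single molecule, while Combi holds the parent compounds unlinked. These groups also share no cartridge. SARB gave 0 of the 32 genes higher and 4 lower than Combi (0.959% of all 730 genes were called higher and 11.2% lower), and edgeR found 1 higher at an unadjusted p under 0.05. Under TMM 2 were higher (ACVR1B and AMH) and 3 lower (5.34% and 7.40% of all genes), and DESeq2 called 2 higher and 2 lower. The median log2 fold change over Combi was -0.43 for the 32 pathway genes, -0.21 for the 24 above background and -0.32 for all genes. The largest difference at high counts was in ID1, at 1231, 1317 and 832 with SARB and 2344, 2744 and 2891 with Combi. ID1 was 2.37-fold lower with SARB (log2 fold change -1.25, SE 0.14, 95% interval -1.53 to -0.96, edgeR adjusted p = 4.35e-06). LTBP1 was 3.39-fold lower (-1.76, SE 0.31, 95% interval -2.41 to -1.11, edgeR adjusted p = 0.000561), and the negative probes differed by a log2 ratio of -0.26 between these groups. No SARB sample of either gene reached the Combi range.

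For ID1 and LTBP1 the cartridge block was the only alternative that removed the call (-1.16 with an edgeR adjusted p of 0.0969, and -1.03 with an edgeR adjusted p of 0.997). Every SARB sample was on cartridge 1 and every Combi sample on cartridge 2 or 3, so that in this block the pair is joined only through the Control samples. INHBB (9.64, 18.9 and 11.3 with SARB, 27.3, 30.0 and 38.3 with Combi) and BMP8A (26.0, 36.4 and 22.1 with SARB, 51.1, 50.1 and 60.5 with Combi) were lower by -1.31 and -0.97 on the log2 scale, with edgeR adjusted p of 0.0274 and 0.0349. INHBB was above background in 1 of 3 SARB and 2 of 3 Combi samples. Both calls were lost without Combi 2, Combi 3, SARB 1 or SARB 3, which left 2 genes called. Both were also lost under DESeq2, with the cartridge block and in limma on the deposited values, and that of BMP8A under TMM.

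The genes that changed with both treatments showed no called difference between them. The log2 fold change of SARB over Combi was 0.01 for BMP4 (95% interval -0.28 to 0.29), -0.20 for ID2 (-0.46 to 0.06), -0.22 for TGFB1 (-0.56 to 0.12) and -0.20 for BMP7 (-0.56 to 0.16). These intervals leave room for differences of the sizes at their ends. BAMBI, called higher with Combi against Control, was at -0.54 (95% interval -0.98 to -0.11, edgeR adjusted p = 0.0705) between SARB and Combi, with no overlap of the samples. TQ at 40 µM and 5-FU at 15 µM were given at doses other than 35 µM, so their values stand beside those of Combi and SARB without a test between them. ID1 averaged 1911 ± 60.2 with TQ, 1283 ± 66.9 with 5-FU, 2660 ± 283 with Combi and 1127 ± 259 with SARB (SD, n = 3). TGFB1 averaged 212 ± 36.1, 363 ± 72.4, 495 ± 93.2 and 427 ± 61.1 in the same order.

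**Figure D4:**
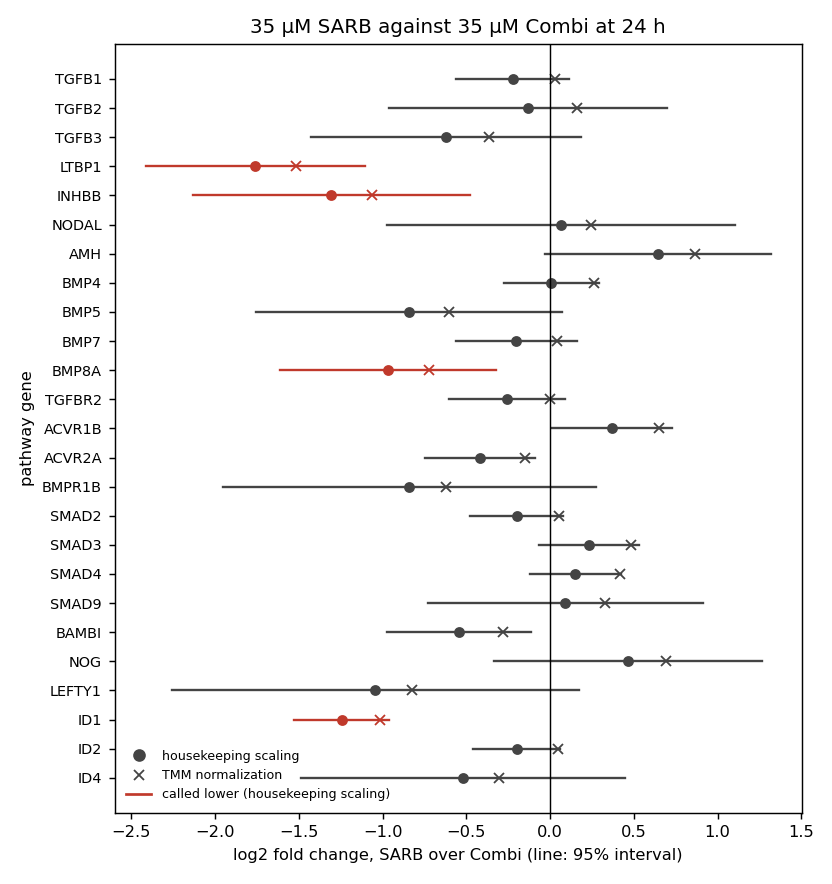
Log2 fold changes of SARB over Combi (horizontal axis) for the 24 pathway genes above background and INHBB (vertical axis), as points with 95% intervals on the housekeeping scale and as crosses under TMM. The called genes LTBP1, INHBB, ID1 and BMP8A lie below 0 with intervals that exclude it, and BMP4 lies at 0.01. The intervals of ACVR2A (-0.747 to -0.092), BAMBI (-0.98 to -0.11) and, above 0, ACVR1B (0.013 to 0.726) also exclude 0. These genes were not called.

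Other components of the pathway were counted from a list of 50 genes, of which 21 were on the panel. With TQ 1 was higher and 2 lower, with 5-FU 1 and 1, with Combi 1 and 0, and with SARB 2 and 4, where 21.6%, 10.1%, 6.58% and 20.0% of all 730 genes were called lower and 3.42%, 10.1%, 13.6% and 8.63% higher. Under TMM the counts were 3 and 1 with TQ, 3 and 0 with 5-FU, 2 and 0 with Combi, and 2 and 3 with SARB. With the cartridge block they were 1 and 0 with TQ, 1 and 1 with 5-FU, 1 and 0 with Combi, and 1 and 0 with SARB. For the 0 with Combi, edgeR found 7 lower at an unadjusted p under 0.05 and DESeq2 called 0. THBS1, which encodes thrombospondin 1, an activator of latent TGF-beta, was the gene called higher with all 4 treatments. It averaged 98.7 ± 13.9 scaled counts in Control, 418 ± 74.4 with TQ, 244 ± 13.8 with 5-FU, 308 ± 41.9 with Combi and 320 ± 41.5 with SARB (SD, n = 3). Its log2 fold changes were 2.07, 1.31, 1.64 and 1.70 (edgeR adjusted p from 1.84e-08 to 6.71e-06), and all 4 remained called under TMM and the cartridge block. MAPK3, which encodes the kinase ERK1, was called lower with TQ (-1.39), 5-FU (-0.71) and SARB (-1.12), and averaged 370 ± 120 in Control. None of its 3 calls was kept with the cartridge block, and that with 5-FU was lost under TMM.

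Of 22 genes known to respond to TGF-beta, 14 were on the panel. With TQ 1 was higher and 3 lower, with 5-FU 3 and 2, with Combi 3 and 0, and with SARB 2 and 2, beside the same shares over all genes. Under TMM they were 1 and 1, 4 and 1, 5 and 0, and 3 and 1 in the same order, and with the cartridge block 1 and 0, 2 and 1, 3 and 0, and 2 and 1. For the 0 with Combi, edgeR found 0 lower at an unadjusted p under 0.05 and DESeq2 called 0. CDKN1A, which encodes the cell cycle inhibitor p21 and is a target of p53 as well as of TGF-beta, averaged 1004 ± 304 in Control. It averaged 4542 ± 951 with 5-FU, 6441 ± 533 with Combi and 5260 ± 947 with SARB, and 520 ± 20.9 with TQ (SD, n = 3). CDKN1A rose by 2.18, 2.68 and 2.39 on the log2 scale with 5-FU, Combi and SARB (edgeR adjusted p from 1.67e-10 to 5.13e-09) and was lower with TQ (-0.95, edgeR adjusted p = 0.000671), the last of which was lost under TMM and the cartridge block. COL5A1, a fibrillar collagen, was called lower with TQ, 5-FU and SARB from a Control level of 6.92 to 48.7, above background in 1 of 3 Control samples, and none of these calls was kept with the cartridge block.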

How the data were processed

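RNA was measured in 15 HCT116 samples with the NanoString PanCancer Pathways panel from 50 ng of total RNA. The authors deposited raw counts per gene, not normalized, and a table of values scaled with the nSolver software to the geometric mean of the housekeeping genes. In that deposited table, whose unit is treated as a signal, 100% of values lay within 1% of a rebuilt value. The rebuilt value was the raw count less the geometric mean of the negative probes, scaled per sample, with a floor of 1. The factor of each sample was the median ratio to the deposited values themselves. A deposited table of the authors' fold changes was not used. Groups came from the sample titles, and cartridges were inferred from the prefix of the scan names. The 32 genes and all lists (other components, genes known to respond to TGF-beta, cell markers) were chosen with earlier results of these data known.

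The raw counts of 730 endogenous genes were fitted in edgeR 4.0.16 (R 4.3.3; glmQLFit and glmQLFTest) in 1 model of 5 groups, with library sizes from the geometric mean of 40 housekeeping genes and no filter. Calls needed a p not above 0.05 and a 1.5-fold change or more, the cut-offs in the study's text, with the p adjusted here by Benjamini-Hochberg over all 730 genes. Alternatives were TMM normalization, DESeq2 1.42.0, a filter on genes above background, the cartridge or the replicate number as a block, limma 3.58.1 on log2 of the deposited normalized signal, no minimum fold change, and each sample left out in turn. The scripts were tested on simulated data. Values in every sample were given for each pathway gene called in at least 1 comparison and for TGFBR2, SMAD2, SMAD3 and SMAD4. Genes of the other lists were named where called in 1 direction in at least 3 of the 4 comparisons with Control, except 1 that is not reported here. No 2 samples held identical counts. Probe sequences were not used here.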

Additional observations from a re-analysis of the deposited data

How the results depend on the processing

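Of the 24 calls among the pathway genes, 7 were kept under every alternative run and 0 reversed: ID1 with 5-FU and SARB, ID2 and BMP4 with Combi and SARB, and TGFB1 with SARB. The setting with no minimum fold change could not remove or reverse a call, since it only loosened the cut-off of the same fit. TMM normalization kept 15 of the 24, DESeq2 14, limma on the deposited values 18, the cartridge block 9, the replicate block 19, and leaving out each sample in turn 13. Depth limits the genes at low counts, since 21 of the 32 had a raw count under 20 in at least 1 sample. INHBB could not be fitted under the filter on low counts, which removes it. The cause of the shifts below was not tested, except that the filter leaves 24 genes.

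For TQ, the count of called genes was 6, all lower. It was 2 under TMM (BMP7 and SMAD3) and 1 under DESeq2 (SMAD3), all higher and none of the 6. It was 1 with the cartridge block, 3 with the replicate block, 2 in limma and 1 to 12 with a sample left out, all lower. The median log2 fold change of all 32 pathway genes, -0.82 with TQ, became -0.34 under TMM, -0.30 under DESeq2, -0.46 under the filter, -0.44 with the cartridge block, -0.47 in limma and -0.95 to -0.54 with a sample left out. For 5-FU, 3 calls became 5 with no minimum fold change and 3 to 4 with a sample left out, and the median of the 32 genes of -0.30 became 0.029 with the cartridge block and -0.43 to -0.16 with a sample left out. For Combi, 5 calls became 2 with the cartridge block and 4 to 6 with a sample left out, with medians of -0.10 to 0.04. For SARB, 6 calls became 5 to 17 with a sample left out (17 without SARB 2), and the median of -0.58 became -0.26 under TMM, -0.25 under DESeq2 and -0.89 to -0.36 with a sample left out. For SARB versus Combi, 4 calls became 0 with the cartridge block (edgeR; 1 gene at an unadjusted p under 0.05, and 4 by DESeq2 without the block), 2 in limma and 2 to 6 with a sample left out (2 without Combi 2, Combi 3, SARB 1 or SARB 3), and the median of -0.43 became -0.11 under DESeq2 and -0.82 to -0.23 with a sample left out (-0.82 without SARB 2).

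Differences that were not called changed sign as follows. With TQ, under TMM and DESeq2, ID2 became 0.16 and 0.20, SMAD2 0.19 and 0.23, SMAD4 0.10 and 0.13, TGFB1 0.25 and 0.29, and TGFBR2 0.34 and 0.37 (-0.33 to 0.050 with a sample left out). BMP4 with TQ became -0.18 with the cartridge block, -0.072 in limma and -0.11 to 0.12 with a sample left out, and BMP7 -0.0069 to 0.22 with a sample left out. SMAD2 with 5-FU became 0.073 under TMM, 0.085 under DESeq2 and 0.083 with the cartridge block, and with SARB 0.026 and 0.037 under TMM and DESeq2. With Combi, SMAD3 became -0.016 to 0.27 with a sample left out and SMAD4 -0.025 with the cartridge block. For SARB versus Combi under TMM and DESeq2, BMP7 became 0.043 and 0.12, ID2 0.047 and 0.11, SMAD2 0.055 and 0.13, and TGFB1 0.031 and 0.10, and TGFBR2 0.074 under DESeq2. With the cartridge block BMP4 became -0.46, SMAD2 0.23, SMAD3 -0.0084 and TGFB1 0.31, and BMP4 was -0.0065 in limma and -0.10 to 0.11 with a sample left out.

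The groups share replicate numbers in the titles, but the numbers did not pair the samples: of 30 same-numbered pairs, 12 had deviations correlated over 0.1 (range -0.716 to 0.455), and 3 of 15 samples correlated best with their own number. With the replicate block the calls numbered 3 with TQ, 3 with 5-FU, 5 with Combi, 5 with SARB and 3 for SARB versus Combi, and the 5 calls lost were TGFB2, INHBB and LEFTY1 with TQ, LTBP1 with SARB, and BMP8A for SARB versus Combi.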
